A study of Mus musculus with 9 samples.

Results

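The 10 mouse genes that encode the pore-forming subunits of voltage-gated calcium channels (Cacna1a, Cacna1b, Cacna1c, Cacna1d, Cacna1e, Cacna1f, Cacna1g, Cacna1h, Cacna1i and Cacna1s) were examined in 9 RNA-seq libraries of sorted islet cells. They were taken by symbol from the 55536 genes in the deposited tables, and all 10 were found. Islets of C57B/L6 mice aged 12 weeks had been picked by hand, kept overnight in culture, dispersed and sorted by FACS on surface markers, and no group carried a treatment or an engineered allele. The beta-enriched subset was CD24 low and CD71 positive, the alpha-enriched subset was CD24 low and CD71 negative, and the delta-enriched subset was CD24 high, with 3 libraries each. The subsets are enriched populations defined by those gates, not pure cell types. The labels do not say whether replicates came from separate animals, so p-values measure only the spread between these libraries.

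Voltage-gated calcium channels open when the membrane depolarises and let calcium into the cell. In islet endocrine cells that calcium triggers the release of hormone granules. The pore is formed by a large alpha1 subunit made of 4 homologous repeats, each with a re-entrant loop that places an acidic residue in the selectivity filter. L-type channels (Cacna1c, Cacna1d, Cacna1f, Cacna1s) and P/Q-, N- and R-type channels (Cacna1a, Cacna1b, Cacna1e) open at strong depolarisation and bind cytoplasmic beta subunits through a conserved site in the linker between the first and second repeats. T-type channels (Cacna1g, Cacna1h, Cacna1i) open near the resting potential, inactivate quickly and lack that site.

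The pore loop of the third repeat is shown because it separates the T-type genes, which were all highest in the delta-enriched subset, from the others. Each line is the coding sequence of the loop in 1 GENCODE M21 transcript, with the codon of the selectivity-filter residue in capitals. In Cacna1d, Cacna1c, Cacna1a and Cacna1e that codon reads glutamate, and in the 3 T-type genes it reads aspartate.
Cacna1d: ttcacagtctcaacttttGAGggctgg
Cacna1c: ttcaccgtctccaccttcGAAgggtgg
Cacna1a: ttcacagtgtccacaggaGAGggctgg
Cacna1e: ttcacagtctctacagggGAAggatgg
Cacna1g: tttgtgctggcctccaagGATggctgg
Cacna1h: ttcgtgctgtcatccaagGATggctgg
Cacna1i: tttgtcttggcctccaagGATggctgg
On GRCm38 these loops lie in exons of the named genes at chr14:30100702-30100728 (minus strand, exon 27, Cacna1d), chr6:118656118-118656144 (minus, exon 27, Cacna1c), chr8:84581320-84581346 (plus, exon 27, Cacna1a), chr1:154444877-154444903 (minus, exon 29, Cacna1e), chr11:94426465-94426491 (minus, exon 24, Cacna1g), chr17:25383502-25383528 (minus, exon 24, Cacna1h) and chr15:80376789-80376815 (plus, exon 24, Cacna1i). The search required 4 such loops in each of the 10 members and an acidic residue in each loop, so that count is no result. Within these loops, 7 members had glutamate codons in all 4, and the 3 T-type genes had aspartate codons in repeats 3 and 4.

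The beta-subunit site is shown for the 3 members with the highest levels in beta- and alpha-enriched cells, with the codon of its conserved tryptophan in capitals.
Cacna1d: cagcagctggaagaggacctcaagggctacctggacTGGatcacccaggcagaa
Cacna1c: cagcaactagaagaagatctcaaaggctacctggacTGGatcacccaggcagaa
Cacna1a: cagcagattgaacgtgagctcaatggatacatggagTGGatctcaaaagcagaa
It lies at chr14:30142600-30142653 in exon 9 of Cacna1d, at chr6:118734906-118734959 in exon 9 of Cacna1c, and across the junction of exons 8 and 9 of Cacna1a at chr8:84536125-84536403, where the interval includes an intron. The site was found in 7 members and was not found in the 3 T-type genes.

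The libraries held 5663141 to 9529920 expected counts. Beta replicate 2 stood apart in its ribosomal RNA, which took 34.4% of its counts against 3.15% to 5.37% elsewhere, and delta replicate 3 held more acinar transcripts (3356 CPM summed over 12 markers) than any other library (28.8 to 623 CPM). Each marker sum below was highest in the subset gated for that cell type. The 10 alpha cell markers summed to 82160 to 101700 CPM in alpha-enriched libraries, against 511 to 732 CPM in beta- and 2641 to 6865 CPM in delta-enriched libraries. The 10 beta cell markers summed to 52430 to 63460 CPM in beta-enriched libraries, against 5370 to 7488 CPM in alpha- and 5917 to 7220 CPM in delta-enriched libraries. The 6 delta cell markers summed to 15530 to 21920 CPM in delta-enriched libraries, against 90.0 to 105 CPM in beta- and 191 to 217 CPM in alpha-enriched libraries. Single genes carried some of these sums. The alpha cell sum in alpha was mostly Gcg (mean 89390 CPM), and the delta cell sum in delta was mostly Sst (mean 17220 CPM). The beta cell sum in delta was mostly Iapp (mean 6202 CPM), whereas Ins2 averaged 191 CPM there and 2325 in alpha. Slc30a8, a listed beta cell marker, was higher in alpha (900 CPM) than in beta (666 CPM). The delta cell sum in beta was mostly Casr (94.2 CPM, against 66.1 in alpha).

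Levels below are TMM-scaled CPM, that is expected counts relative to library size, unless TPM, which is also per transcript length, is named. Fold changes come from edgeR's quasi-likelihood test on rounded expected counts, fitted over all 9 libraries, with Benjamini-Hochberg adjustment over 15896 genes and a threshold of 0.05. The log2 fold change is of the group named first over the second. Of the 10 members, 8 passed the filter on low counts. Cacna1h and Cacna1i passed through the delta-enriched libraries alone, so their differences of beta and of alpha from delta were fixed in part by the filter, and their p-values there are given as a description. Cacna1e had 0 beta-enriched libraries above the filter's level and passed through alpha or delta, so its differences from beta carry the same limit. The counts of calls below give no support of their own.

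Between beta- and alpha-enriched cells, 7 of the 8 tested members passed the threshold, 3 higher (Cacna1d, Cacna1c, Cacna1a) and 4 lower (Cacna1e, Cacna1g, Cacna1h, Cacna1i) in beta. Among all genes 26.6% passed, 14.8% higher and 11.9% lower in beta. Between beta- and delta-enriched cells, 7 passed, 2 higher (Cacna1d, Cacna1c) and 5 lower (Cacna1b, Cacna1e, Cacna1g, Cacna1h, Cacna1i) in beta, against 30.6% of all genes, 15.4% higher and 15.3% lower. Between alpha- and delta-enriched cells, 7 passed, 2 higher (Cacna1d, Cacna1c) and 5 lower (Cacna1a, Cacna1b, Cacna1g, Cacna1h, Cacna1i) in alpha, against 24.3% of all genes, 11.0% higher and 13.3% lower. These comparisons share libraries and are not independent of each other. With limma on log2(TPM + 1), 1, 5 and 3 members passed in the 3 comparisons in that order. Without beta replicate 2 and delta replicate 3, 6, 7 and 5 members passed, with Cacna1g lost for beta over alpha, and Cacna1d and Cacna1c for alpha over delta.

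**Figure D1:**
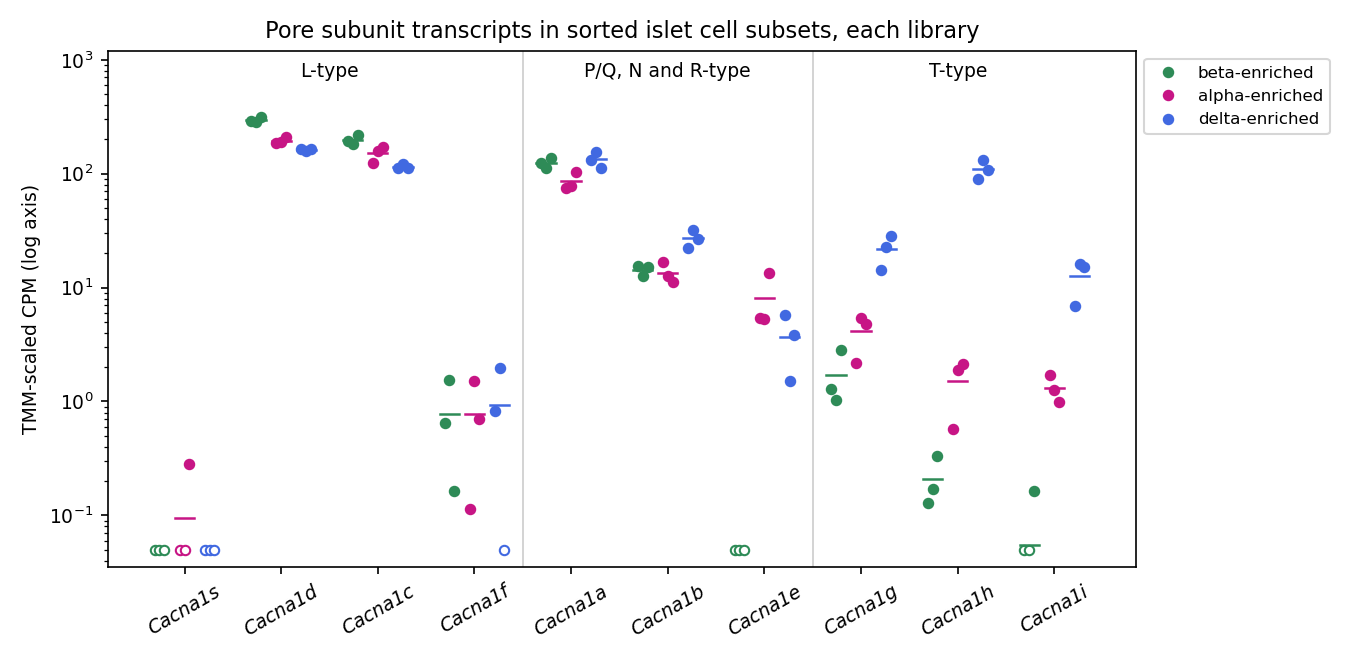
TMM-scaled CPM of each pore subunit gene (log axis) in beta- (green), alpha- (pink) and delta-enriched (blue) libraries. Points are single libraries, horizontal lines are subset means, and open points at the bottom are libraries with 0 counts. Cacna1h sits between 89.3 and 132 CPM in delta-enriched libraries and at or below 2.12 CPM in all others.

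Cacna1d, Cacna1c and Cacna1a had the highest TPM of the 10 in beta- and alpha-enriched cells. Cacna1d (chr14:30039939-30491455, minus strand), an L-type subunit that opens at more negative voltages than Cacna1c, had 292, 283 and 315 CPM in beta-enriched libraries, 186, 189 and 209 CPM in alpha-enriched libraries and 165, 158 and 166 CPM in delta-enriched libraries. The subsets did not overlap. The log2 fold change was 0.61 ± 0.09 (SE, adjusted p = 4.53e-05) for beta over alpha and 0.86 ± 0.09 (adjusted p = 7.49e-07) for beta over delta. The step for alpha over delta was small (0.26 ± 0.09, adjusted p = 0.044), and it was lost under 14 of 21 alternative settings, among them the removal of any beta-enriched library, of alpha replicate 2 or 3, or of delta replicate 2 or 3. Testing log2(TPM + 1) also ended the call for beta over alpha, with a similar fold change (0.59, adjusted p = 0.212).

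Cacna1c (chr6:118587240-119196418, minus strand), the L-type subunit of cardiac and smooth muscle and a main carrier of calcium current in mouse beta cells, had 194, 184 and 220 CPM in beta-enriched libraries, 125, 158 and 170 CPM in alpha-enriched libraries and 112, 121 and 112 CPM in delta-enriched libraries. The lowest beta-enriched value was above the highest alpha-enriched value, and the lowest alpha-enriched value was above the highest delta-enriched value. The log2 fold change was 0.79 ± 0.11 for beta over delta (adjusted p = 3.68e-05), 0.40 ± 0.11 for beta over alpha (adjusted p = 0.0142) and 0.40 ± 0.11 for alpha over delta (adjusted p = 0.0174). The difference of beta from alpha fell to 0.16 (adjusted p = 0.511) when the effective length that RSEM estimated for the gene in each library was used as an offset, and the call was also lost without beta replicate 3 (0.33, adjusted p = 0.089) or alpha replicate 1 (0.28, adjusted p = 0.0949). With the same offset the fold of alpha over delta was larger (0.70, adjusted p = 0.00286). In limma on log2(TPM + 1) it was 0.81, but without a call (adjusted p = 0.0639). In counts the call of alpha over delta was lost without alpha replicate 2, alpha replicate 3 or delta replicate 3 (0.37, 0.31 and 0.38, with adjusted p of 0.0632, 0.1 and 0.0554).

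The ratio of the 2 main L-type genes depended on the unit. In TPM the log2 ratio of Cacna1d to Cacna1c was 0.75 in beta-, 0.23 in alpha- and 0.78 in delta-enriched cells on average, with alpha apart from the others (exact permutation test over libraries, 2-sided, p = 0.1, the smallest that 3 against 3 libraries allow). With counts divided by 1 mean length per gene, the averages were 0.68, 0.48 and 0.61 and the subsets overlapped. The effective length of Cacna1c averaged 6856 bases in beta-, 5846 in alpha- and 7068 in delta-enriched libraries, and gene totals cannot show which isoforms lie behind that estimate.

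Of the other L-type genes, Cacna1f, which serves photoreceptor synapses in the retina, had 15 counts in beta-, 18 in alpha- and 19 in delta-enriched libraries in total, with means of 0.783, 0.777 and 0.928 CPM. Cacna1s, the voltage sensor of skeletal muscle, had 0, 2 and 0 counts. A total of 0 counts allowed a level of up to 0.152 CPM in beta- and 0.138 CPM in delta-enriched cells, taking 3 counts over the subset as the limit. Neither gene passed the filter, and no difference between subsets was detectable at this depth.

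Cacna1a (chr8:84388440-84640246, plus strand), the P/Q-type pore that drives transmitter release at most central synapses, was lowest in alpha-enriched cells. It had 123, 112 and 136 CPM in beta-enriched libraries, 75.3, 78.2 and 103 CPM in alpha-enriched libraries and 132, 155 and 113 CPM in delta-enriched libraries. The alpha-enriched libraries lay below all others, while beta and delta overlapped. The log2 fold change was 0.54 ± 0.14 for beta over alpha (adjusted p = 0.00706) and -0.64 ± 0.14 for alpha over delta (adjusted p = 0.00211). For beta over delta it was -0.11 (95% interval -0.39 to 0.18, adjusted p = 0.617), and its sign turned with the length offset (0.02) and without delta replicate 2 (0.02). Both calls held with the length offset (0.71 for beta over alpha, adjusted p = 0.0289, and -0.69 for alpha over delta, adjusted p = 0.0352). In limma on log2(TPM + 1) the folds were 0.63 and -0.44 and neither passed (adjusted p = 0.252 and 0.418).

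Cacna1b (chr2:24603887-24763152, minus strand), the N-type pore of sympathetic and sensory nerve endings, had 15.5, 12.5 and 15.2 CPM in beta-enriched libraries, 16.7, 12.6 and 11.3 CPM in alpha-enriched libraries and 22.1, 32.1 and 26.9 CPM in delta-enriched libraries. All delta-enriched libraries were above all others. In counts it was lower in beta than in delta (log2 fold change -0.90 ± 0.21, adjusted p = 0.00302) and lower in alpha than in delta (-0.99 ± 0.21, adjusted p = 0.00186), and beta over alpha was 0.09 (95% interval -0.36 to 0.54, adjusted p = 0.824). Per length neither call held. TPM averaged 1.44 ± 0.95 in beta-, 1.01 ± 0.52 in alpha- and 1.45 ± 0.49 in delta-enriched cells (SD, n = 3 each), and with the length offset the log2 fold change was -0.18 for beta over delta (adjusted p = 0.838) and -0.67 for alpha over delta (adjusted p = 0.389). The estimated effective length of Cacna1b ran from 3058 to 9530 bases across libraries.

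Cacna1e (chr1:154390731-154884501, minus strand), the R-type pore, has been described in mouse beta cells, where its loss reduces the later phase of insulin release. In these libraries it had 0 counts in all 3 beta-enriched samples, against 5.35, 5.29 and 13.5 CPM in alpha-enriched and 5.74, 1.51 and 3.85 CPM in delta-enriched libraries. From summed counts, alpha held 51.0 times and delta 24.8 times the beta limit of 3 counts over the subset. Both ratios take the alpha and delta levels as exact, without counting error or the spread between libraries. Alpha replicate 3 held 96 of the 185 alpha counts. In edgeR, Cacna1e was lower in beta than in alpha (adjusted p = 1.88e-05) and than in delta (adjusted p = 0.000115). In limma on log2(TPM + 1) and log2(TPM + 0.1) the call for beta over delta was lost (adjusted p = 0.411 and 0.083). The call for beta over alpha held on both scales (adjusted p = 0.0395 and 0.00544). The alpha- and delta-enriched libraries overlapped (log2 fold change of alpha over delta 1.11, 95% interval -0.02 to 2.23, adjusted p = 0.15). As a share of the alpha-enriched mean, the delta-enriched libraries held 45.9% of Cacna1e and 84.9% of Ppy, the pancreatic polypeptide gene. The share was 4.90% for Gcg and 7.94% for Irx2, both listed as alpha cell markers. Among the listed alpha cell markers, Etv1 (809 CPM in alpha, 514.5 in delta) kept a larger share in delta than Cacna1e. Gria3 came below Cacna1e (232.8 and 81.8 CPM), and the remaining markers lay lower still. The 3 PP cell markers, all present in the files, summed to 62.4 to 90.4 CPM in beta-, 2747 to 3832 CPM in alpha- and 4358 to 6277 CPM in delta-enriched libraries. They disagreed between alpha and delta. Sertm1 averaged 0, 14.0 and 0.678 CPM in beta, alpha and delta. Pyy averaged 30.85, 1245 and 3395 CPM, and Ppy 41.5, 2014 and 1709 CPM, in the same order. The part of PP cells in the Cacna1e result was not tested.

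The T-type genes were all highest in delta-enriched cells. Cacna1h (chr17:25374285-25433783, minus strand), whose channel supports burst firing and is inhibited by nickel and zinc, had 0.128, 0.171 and 0.330 CPM in beta-enriched libraries, 0.570, 1.89 and 2.12 CPM in alpha-enriched libraries and 89.3, 132 and 107 CPM in delta-enriched libraries. Those levels rest on 4 counts in beta, 35 in alpha and 2364 in delta. The log2 fold change was -8.96 ± 0.38 for beta over delta (adjusted p = 2.88e-11), -6.19 ± 0.29 for alpha over delta (adjusted p = 1.22e-10, both under the limit from the filter) and -2.76 ± 0.64 for beta over alpha (adjusted p = 0.00361). From the summed counts, delta held 536 times the level of beta (95% counting interval 209 to 1967) and 74.0 times the level of alpha (53.1 to 106.6). These intervals cover counting error only. In bulk samples, fewer expressing cells and less RNA per cell cannot be told apart.

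Cacna1g (chr11:94408391-94474198, minus strand), the T-type pore of thalamic relay neurons and the sinoatrial node, had 1.28, 1.03 and 2.81 CPM in beta-enriched libraries, 2.16, 5.41 and 4.80 CPM in alpha-enriched libraries and 14.3, 22.5 and 28.1 CPM in delta-enriched libraries. Delta stood above both other subsets, with a log2 fold change of -3.67 ± 0.43 for beta over delta (adjusted p = 3.40e-06) and -2.40 ± 0.38 for alpha over delta (adjusted p = 0.000131). Beta and alpha overlapped in 1 library each (-1.27 ± 0.45, adjusted p = 0.0457), and that call was lost under 11 of 21 alternative settings, including the removal of beta replicate 1 or 2, alpha replicate 2 or 3, or delta replicate 2 or 3. With the length offset it was -0.69 (adjusted p = 0.581).

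Cacna1i (chr15:80287238-80398279, plus strand), a T-type pore that inactivates more slowly than the others and is best known from the thalamic reticular nucleus, had 1 count over the beta-enriched libraries, 1.71, 1.26 and 0.988 CPM in alpha-enriched libraries and 6.83, 16.0 and 15.2 CPM in delta-enriched libraries. No libraries of different subsets overlapped. The log2 fold change was -3.24 ± 0.47 for alpha over delta (adjusted p = 5.32e-05, under the limit from the filter). Delta held 248 times the level of beta from summed counts (95% counting interval 44.2 to 9843). The adjusted p was 3.95e-07, also under the limit from the filter. Alpha held 26.5 times the level of beta (4.42 to 1077), with an adjusted p of 0.00128. Both intervals cover counting error only.

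Fits of the beta- and alpha-enriched libraries alone left out Cacna1h and Cacna1i, because neither passed the filter there. In limma on log2(TPM + 1) and log2(TPM + 0.1), the calls of both genes for beta over alpha were lost. The adjusted p was 0.84 and 0.308 for Cacna1h, and 0.739 and 0.32 for Cacna1i.

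**Figure D2:**
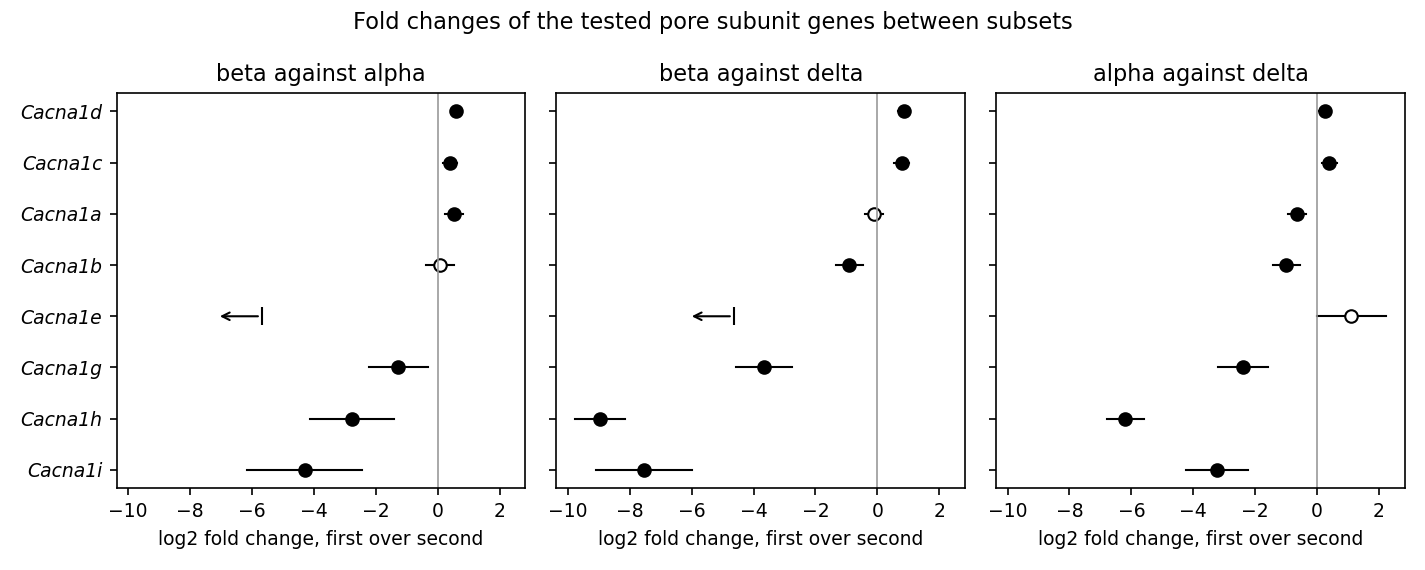
Log2 fold change of the 8 tested pore subunit genes in the 3 comparisons, first subset over second, with 95% intervals from edgeR. Filled points passed an adjusted p of 0.05 and open points did not. Arrows mark Cacna1e at 51.0-fold (alpha) and 24.8-fold (delta), because beta had 0 counts. These are levels from summed counts, taken as exact, over a beta limit of 3 counts. Cacna1d and Cacna1c lie right of 0 in each panel and the T-type genes lie left of it.

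The T-type genes were set beside the delta cell markers Sst and Hhex, as shares of the delta-enriched mean. In alpha-enriched cells Cacna1h stood at 1.39% of it (0.520% to 1.93%), Cacna1g at 19.0% (9.99% to 25.0%) and Cacna1i at 10.4% (7.79% to 13.5%). In the same libraries Sst, the somatostatin gene, stood at 0.219% (0.110% to 0.426%) and Hhex, a delta cell transcription factor, at 0.720% (0.0562% to 1.67%). In beta-enriched cells Cacna1h stood at 0.192%, Cacna1g at 7.87% and Cacna1i at 0.434%, against 0.00911% for Sst and 0.0271% for Hhex. Each of the 3 T-type genes stood above Sst and Hhex in each of the 3 alpha-enriched libraries. The margin was small for Cacna1h over Hhex in alpha replicate 3 (1.93% and 1.67%). Other listed delta cell markers differed. Ghsr averaged 0.559 CPM in alpha and 145.5 in delta, below all T-type genes as a share. Ffar4 (9.68 and 30.7 CPM) and Casr (66.1 and 150.9 CPM) stood above all T-type genes by mean share. Rbp4 (84.5 and 580.8 CPM) stood above Cacna1h and Cacna1i. The part of delta cells in the alpha-enriched T-type levels was not tested.

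**Figure D3:**
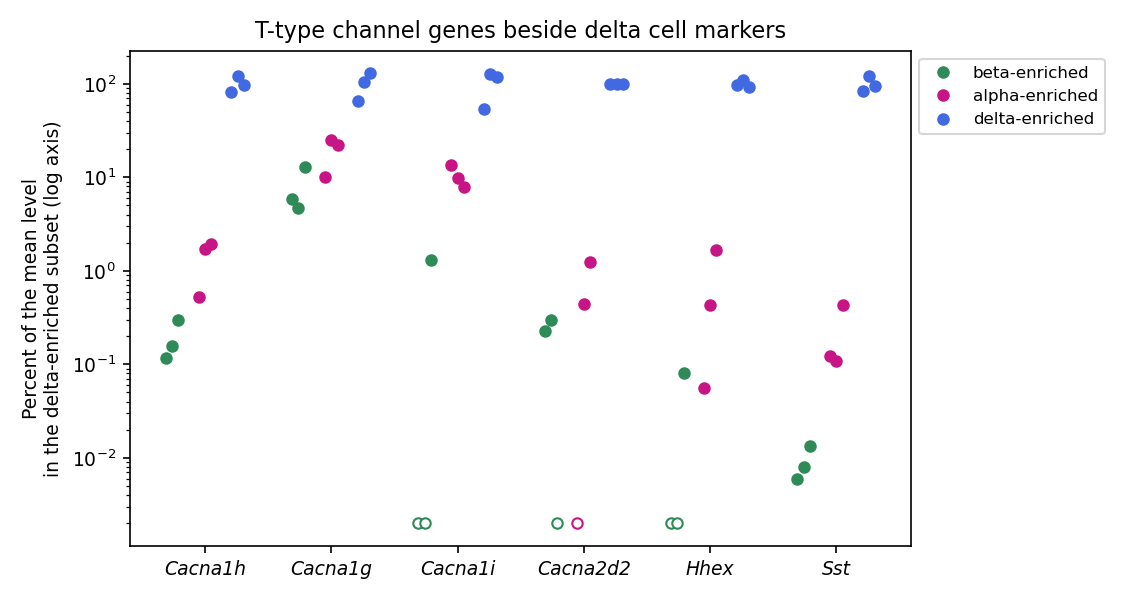
Level of the 3 T-type genes, of Cacna2d2 and of the delta cell genes Hhex and Sst in each library, as a percent of the mean in delta-enriched libraries (log axis). Green is beta-enriched, pink is alpha-enriched, blue is delta-enriched, and open points are libraries with 0 counts. In alpha-enriched libraries Cacna1g lies between 9.99% and 25.0%, and Sst between 0.110% and 0.426%.

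Within each library, the make-up of the 10 genes was compared as shares of their summed TPM, which needs no scaling between libraries. T-type genes took 0.628% ± 0.220 in beta-, 2.05% ± 1.41 in alpha- and 25.0% ± 7.43 in delta-enriched cells (SD, n = 3 each), with 16.5%, 28.2% and 30.3% in the delta replicates. L-type genes took 63.2% ± 0.290, 65.3% ± 3.25 and 37.4% ± 5.20 in beta, alpha and delta. P/Q-, N- and R-type genes took 36.2% ± 0.156, 32.6% ± 3.74 and 37.6% ± 7.04, and their libraries overlapped. With counts per kb of mean length this share was 33.9%, 34.1% and 38.5%, and beta lay below delta in every library (difference -4.59 percentage points, exact permutation test, 2-sided, p = 0.1, the smallest possible). In CPM, both beta and alpha lay below delta (-6.22 and -4.76 percentage points, exact permutation p = 0.1 each). The T-type and L-type shares of delta lay apart from those of beta and of alpha in every library (exact permutation test, 2-sided, p = 0.1 in each, the smallest possible). Cacna1h alone made up 17.8% of the family in delta, against 0.0405% in beta and 0.342% in alpha.

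**Figure D4:**
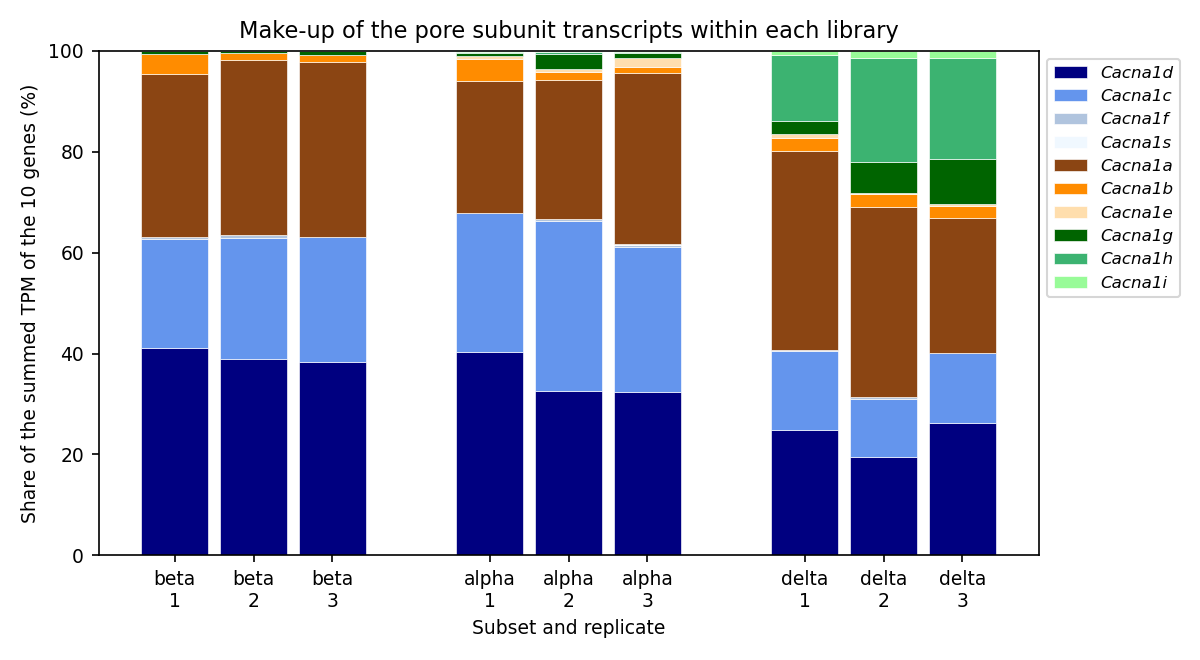
Share of each pore subunit gene in the summed TPM of the 10 genes, 1 bar per library, with L-type genes in blue, P/Q-, N- and R-type genes in brown to orange and T-type genes in green. The green part takes 16.5% to 30.3% of the delta-enriched bars and at most 3.65% of the others.

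Ordered by mean TPM, beta-enriched cells had Cacna1d (25.2), Cacna1a (21.6) and Cacna1c (15.0) ahead of Cacna1b (1.44). Alpha-enriched cells had the same order by mean, with 16.1, 14.0, 13.9 and 1.01 TPM, but Cacna1d was above Cacna1a in 2 of 3 libraries and Cacna1a above Cacna1c in 1 of 3. In delta-enriched cells Cacna1a (18.9 TPM) came before Cacna1d (12.7), Cacna1h (10.3), Cacna1c (7.33) and Cacna1g (3.52). In TPM the ranges of the top 3 neighbours overlapped in beta and alpha, as did those of the top 4 in delta. Even so, Cacna1d was above Cacna1a in 3 of 3 beta-enriched libraries and below it in 3 of 3 delta-enriched libraries. With counts per kb of mean length, not scaled to library size, neighbours among the top 3 did not overlap in alpha or in delta. Those in beta still did, as did Cacna1h and Cacna1c in delta. Cacna1c lay clear of Cacna1b in beta and alpha, and clear of Cacna1g in delta. The summed level of the family was 124 ± 13.8 CPM per kb in beta-, 86.5 ± 10.1 in alpha- and 121 ± 23.4 in delta-enriched cells (SD, n = 3 each). It was lower in all alpha-enriched libraries than in any other (exact permutation test, 2-sided, p = 0.1 against beta and against delta, the smallest possible), but in the deposited TPM the subsets overlapped.

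The genes whose profiles over the 9 libraries were closest to each member, among 9393 protein-coding genes, were found by Euclidean distance between centred log2 CPM. For Cacna1h they were Mest (distance 1.69), Neurog3 (1.72) and Cacna2d2 (1.93), and for Cacna1d they were Trio (0.216), Phf20l1 (0.223) and Pikfyve (0.231). Cacna1c was closest to Ildr1, Arhgef7 and Pi4k2a, Cacna1a to Itgb5, Cdkl1 and Cep250, and Cacna1b to Plxna3, Bex1 and Hist1h4d. Cacna1e was closest to Gria2, Drc1 and Nhsl1, Cacna1g to Parm1, Dock1 and Clu, and Cacna1i to Zfhx4, Itgb6 and Tspan8. Neurog3, the endocrine progenitor factor, averaged 0.222 CPM in beta-, 0.910 in alpha- and 43.0 in delta-enriched cells.

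The auxiliary subunits set how many channels reach the membrane and how they gate. Of 10 genes 8 were tested: 1 was higher and 4 lower in beta than in alpha, 1 higher and 5 lower in beta than in delta, and 1 higher and 4 lower in alpha than in delta. Among all genes 26.6%, 30.6% and 24.3% passed in those comparisons. Their median log2 fold changes were -0.61, -1.10 and -0.83, beside -0.02, -0.02 and -0.01 over all tested genes. Cacna2d2, an alpha2delta subunit, averaged 0.0999 CPM in beta-, 0.319 in alpha- and 56.8 in delta-enriched cells (log2 fold change -8.90 for beta over delta, adjusted p = 1.52e-10, and -7.50 for alpha over delta, adjusted p = 2.78e-10). It passed the filter through delta alone, with 2 counts in beta, 7 in alpha and 1234 in delta, so these p-values are a description. Cacna2d4 was highest in alpha-enriched cells, with 1.84 CPM in beta, 12.6 in alpha and 2.47 in delta (-2.80 for beta over alpha, adjusted p = 8.19e-05). Cacna2d1, the most abundant in counts, averaged 518, 380 and 428 CPM in beta, alpha and delta, and was 0.45 higher on the log2 scale in beta than in alpha (adjusted p = 0.00155). Cacnb3, a beta subunit, averaged 27.9 CPM in beta, 40.3 in alpha and 57.9 in delta, and was lower in beta than in alpha (-0.53, adjusted p = 0.0182) and than in delta (-1.05, adjusted p = 5.37e-05).

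Genes of the active zone and release machinery that tether or couple to these channels were mixed in direction. Of 25 genes 23 were tested: 8 were higher and 7 lower in beta than in alpha, 6 higher and 9 lower in beta than in delta, and 4 higher and 8 lower in alpha than in delta, beside 26.6%, 30.6% and 24.3% of all genes called. Their median log2 fold changes were 0.02, 0.00490 and -0.14. Rims3, a short RIM protein that binds the channel's beta subunit, averaged 100.5 CPM in beta-enriched cells, against 6.66 in alpha (log2 fold change 3.91, adjusted p = 3.02e-11) and 6.15 in delta (4.02, adjusted p = 1.99e-11). Pclo, the scaffold piccolo, averaged 1657 CPM in beta, 334 in alpha and 555 in delta (2.31 for beta over alpha, adjusted p = 1.51e-10). Syt1, the fast calcium sensor of synaptic release, averaged 0.820 CPM in beta, 9.37 in alpha and 80.1 in delta (-6.67 for beta over delta, adjusted p = 3.89e-11). Syt1 had 0 beta-enriched libraries above the filter's level, so its differences from beta carry the same limit as those of Cacna1e. Syt4, a synaptotagmin of dense-core vesicles, averaged 367, 134 and 82.6 CPM in beta, alpha and delta (1.45 for beta over alpha, adjusted p = 5.47e-08).

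Of 23 channel regulators 18 were tested: 3 were higher and 5 lower in beta than in alpha, 3 higher and 7 lower in beta than in delta, and 3 higher and 6 lower in alpha than in delta, beside the same shares of all genes (26.6%, 30.6% and 24.3%). Their median log2 fold changes were 0.03, -0.56 and -0.19. Cabp1 encodes a calmodulin-like protein that slows calcium-dependent inactivation of L-type channels. Cabp1 averaged 20.3 CPM in beta-enriched cells, 3.29 in alpha and 12.9 in delta (2.61 for beta over alpha, adjusted p = 1.72e-06, and -1.96 for alpha over delta, adjusted p = 5.36e-05). Stac2, of a family that modulates L-type channels, had 0 counts in beta, 167 in alpha and 8 in delta (4.19 for alpha over delta, adjusted p = 0.000433). It passed the filter through alpha alone, so that p-value is a description. Cbarp, which inhibits channels through their beta subunit, averaged 41.6 CPM in beta, 37.0 in alpha and 111 in delta (-1.42 for beta over delta, adjusted p = 7.32e-07). Camk2d, a calcium- and calmodulin-dependent kinase subunit, averaged 44.8 CPM in beta, 156 in alpha and 82.6 in delta (-1.80 for beta over alpha, adjusted p = 1.32e-08).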

How the data were processed

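The members, gene lists and tests were chosen with earlier results of these data known. The submitters' processing notes name STAR (2.5.2b), RSEM, DESeq2 (1.22.1) under R (3.5.1) and the mouse build GRCm38.p6. Neither the version of RSEM nor its strand setting is given in the sources used here. Per the labels' protocols, libraries were random-primed, strand-specific and paired-end. Per the file headers, the authors deposited for each library expected counts, TPM, FPKM and effective lengths from RSEM, and 1 table of normalised signal for 17993 genes in all libraries. The deposited FPKM values were not used. RSEM shares reads between matching genes and isoforms, and the effective length of a member differed by 1.19- to 5.47-fold between libraries, which enters TPM but not counts. Without the strand setting, reads on antisense neighbours such as Dcp1a (within Cacna1d) and Dcp1b (within Cacna1c) cannot be assigned with certainty. Those neighbours had 253 to 551 and 122 to 230 counts.

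Expected counts were rounded, filtered with filterByExpr (15896 genes kept), scaled by TMM and fitted with edgeR 4.0.16 (R 4.3.3) by robust quasi-likelihood with 1 coefficient per subset, 2-sided. The script was tested on simulated data. limma 3.58.1 and DESeq2 1.42.0 served as alternatives. Shares within the family were compared with exact permutation tests over libraries. Limits for genes at 0 used 3 counts over a subset. Fold ratios to such a limit took the level of the other subset as exact. Counting intervals are at 95%. Sequences are the longest open reading frame of GENCODE M21 transcripts on GRCm38, searched for the pore loop and the beta-subunit site in translation, with coordinates on that build. The text names all 10 members, up to 4 called genes with the smallest adjusted p per list and comparison (a selection of these is given), and the 3 nearest profiles (at least 10 CPM in the highest subset) of each called member.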

Additional observations from a re-analysis of the deposited data

How the results depend on the processing

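Of the values of single genes under alternative settings, 438 kept their direction and their side of the threshold, 58 kept the direction and lost the call, and 6 turned in sign. The 6 were all uncalled: Cacna1b, beta over alpha, was -0.0256 without alpha replicate 3 (-0.0256 to 0.268 leaving out each library in turn), and Cacna1a, beta over delta, was 0.0207 with the length offset, 0.19 and 0.20 in limma on log2(TPM + 1) and log2(TPM + 0.1), 0.0467 in limma on the deposited normalised values and 0.0211 without delta replicate 2 (-0.209 to 0.0211 leaving out each library in turn). Members called numbered 1, 5 and 3 under both TPM scales for beta against alpha, beta against delta and alpha against delta, and 5 to 7 under every other setting. All genes called fell to 1765 and 1819, 2446 and 2480, and 1807 and 1782 on the 2 TPM scales, against 4231, 4869 and 3868. The cause was not tested. Upper-quartile factors turned the split for beta against alpha to 1959 higher and 2348 lower, against 2345 and 1886, and log2(TPM + 1) turned that for alpha against delta to 980 and 827, against 1748 and 2120. With a replicate block, 7, 7 and 7 members and 4625, 5241 and 4294 genes were called. Same-numbered libraries correlated at 0.00085 to 0.112 in their deviations from the subset means, against -0.102 to 0.021 for other pairs. All 9 of 9 libraries matched best with their own number. The labels do not say whether the numbers mark a shared preparation. The main fit left them unpaired, so any such pairing is ignored there. Without beta replicate 2 and delta replicate 3 together, 6, 7 and 5 members were called.

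The L-type share of beta minus alpha was 1.81 percentage points with counts per kb of mean length and 2.66 in CPM, against -2.12, and that of beta minus delta was 30.3 in CPM. The P/Q-, N- and R-type share of beta minus alpha was -0.279 and -1.47, against 3.54. The log2 ratio of Cacna1d to Cacna1c differed by 0.20 between beta and alpha and by -0.13 between alpha and delta, both per mean length and in CPM, against 0.52 and -0.55. The summed level differed by 17.3 TPM between beta and alpha and by -8.71 TPM between alpha and delta. Depth limits Cacna1f, Cacna1s and the beta-enriched levels of Cacna1h and Cacna1i.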

Other observations

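Genes that store, admit and remove calcium act beside the voltage-gated channels. Of 25 such genes 20 were tested: 7 were higher and 2 lower in beta- than in alpha-enriched cells, 4 higher and 5 lower in beta than in delta, and 2 higher and 9 lower in alpha than in delta, beside 26.6%, 30.6% and 24.3% of all genes called. Their median log2 fold changes were 0.19, 0.09 and -0.32. The 3 IP3 receptor genes, whose products release calcium from the endoplasmic reticulum, had different patterns. Itpr1 averaged 97.5 CPM in beta-, 626.5 in alpha- and 831 in delta-enriched cells, with a log2 fold change of -2.68 for beta over alpha (edgeR, adjusted p = 5.09e-12). Itpr2 averaged 61.6, 6.37 and 5.60 CPM in the same order, with 3.27 for beta over alpha (edgeR, adjusted p = 1.22e-09). Itpr3 averaged 128, 94.3 and 160.4 CPM, with 0.44 for beta over alpha (edgeR, adjusted p = 0.0216), -0.77 for alpha over delta (adjusted p = 0.000367) and no call for beta over delta (-0.33, adjusted p = 0.0754). Atp2a2 and Atp2a3, the pumps that refill those stores, averaged 2095 and 495 CPM in beta, against 592 and 131 in alpha and 448 and 145 in delta. Slc8a1, the sodium-calcium exchanger, averaged 287 CPM in beta, 190 in alpha and 296 in delta, and was lower in alpha than in delta (-0.64, edgeR, adjusted p = 5.72e-05).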
